A study of Mus musculus with 8 samples.

Results

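The genes described here were the Wnt ligands, the receptors and co-receptors that bind them, the secreted proteins that hold them back, and the intracellular readers and feedback genes of the pathway, in cultured mouse bone marrow mesenchymal stem cells (MSCs). They were chosen by gene name, with earlier results of these data known, and numbered 55 of the 47643 named genes in the expression table. By role they were 12 ligands, 10 Frizzled receptors, 5 co-receptors or alternative receptors, 12 secreted antagonists, 8 genes of the R-spondin axis, 5 genes for β-catenin and its TCF/LEF partners, and 3 intracellular feedback genes. After the filter on low counts, 46 of the 55 were among the 15327 genes tested. Wnt1, Wnt3, Wnt3a, Wnt7a, Wnt8a, Wnt8b, Wnt9b, Dkk4 and Rspo4 were not among the 55 and stood in a separate list of pathway genes. None of them exceeded 6 counts in any library. Wnt3, Wnt3a, Wnt7a, Wnt8a and Dkk4 had 0 counts in each library, but the positions given for them span less than their listed gene lengths. For Wnt3a these were mm10 chr11:59290577-59290752 and 2761 bases. Whether this lowered their counts was not tested.

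The study asked how the loss of Mettl3, the catalytic subunit of the enzyme that writes N6-methyladenosine (m6A) on mRNA, changes MSCs. RNA-seq was made from MSCs of C57BL/6 mice labelled wild type (WT, 2 libraries), which the study's methods give as Mettl3fl/fl littermates, and of Prx1-Cre;Mettl3fl/fl mice (cKO, 2 libraries). Prx1-Cre is active in limb bud mesenchyme and its descendants, so that other marrow cells of a cKO mouse keep the gene. All cultures had spent 2 days in osteogenic medium that held dexamethasone at 100 nM, β-glycerophosphate at 5 mM and ascorbic acid at 50 μg/ml. The m6A data came from WT MSCs alone, as 2 immunoprecipitated and 2 input samples behind a single list of peaks. The sources used here give neither the age of the mice nor how many animals stand behind a library, so the p-values measure the spread between these libraries, which may be technical.

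The 4 libraries held 23948200 to 34069223 estimated counts. The WT libraries stood further apart from each other (chi-square per degree of freedom 32.6 over genes) than the cKO libraries did (1.82). Cre takes only exons 2 and 3 out of Mettl3, and the gene as a whole was at 17.6 and 16.9 CPM (counts scaled to library size) in WT and at 17.5 and 16.3 CPM in cKO, a log2 fold change of -0.03 (SE 0.0929, adjusted p = 0.824), and therefore gives no check of the genotype labels. WT and cKO below name the libraries as labelled. Macrophage markers summed to 19000 and 24000 TPM (a level per length of transcript, scaled to library size) in WT and to 27400 and 27600 TPM in cKO, so macrophage transcripts were abundant in both cultures beside those of stroma. Chondrocyte markers fell in 8 of 9 tested, from a sum of 1470 TPM in each WT library to 66.1 and 65.7 TPM in cKO, while 6 of 7 adipocyte markers rose, from 394 and 403 to 768 and 786 TPM. Of the stromal and osteoblast markers, 3 rose and 8 fell of 13, and of 5 osteocyte markers Dmp1, Mepe and Fgf23 were at or below 0.296 CPM in every library, Phex was not called (0.0825 to 0.531 CPM), and Pdpn, which other cells also express, rose from 39.9 and 35.2 to 65.7 and 66.5 CPM (adjusted p = 0.000886). Their part in the results below was not tested, and in bulk RNA fewer cells of a type and less RNA per cell cannot be told apart.

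Wnt ligands are secreted lipid-modified proteins that bind a Frizzled receptor. With the co-receptors Lrp5 or Lrp6 they halt the breakdown of β-catenin, which then enters the nucleus and acts with TCF/LEF proteins on target genes, whereas with Ror or Ryk receptors they act without β-catenin on cell shape and movement. In bone the β-catenin branch is known to favour osteoblasts over adipocytes and cartilage, and it is tuned from outside the cell by antagonists that trap the ligand or the co-receptor and by R-spondins, which protect Frizzled from removal.

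Before the values, stretches of the members' m6A peaks are shown, since m6A is the mark that Mettl3 writes. Each line gives 28 bases of mm9 genome on the strand of the gene, 5′ to 3′, around the GGAC closest to the summit of a peak, with GGAC, the commonest core of the m6A consensus, in capitals. It is the motif nearest the summit and not a located site, and it lay 52 nt from the summit in Lgr4, 53 in Ror2, 63 in Rspo2, 72 in Lef1 and 78 in Nkd2, but within 50 nt in the others. The part of the gene given in brackets is that of the summit. The Lef1 stretch lies upstream of the annotated mm9 gene start (chr3:130813389), and only the summit of that peak is in the 5′ UTR. The Wnt4, Fzd1, Fzd5, Lgr4, Rspo2, Ror2, Nkd2, Lef1 and Sfrp4 stretches are shown because their genes changed between the genotypes, and those of Wnt5b, Wnt7b and Fzd6 because their peaks were among the most enriched.
Wnt4 (coding, chr4:136852430-136852457, + strand): acatacagatgaGGACctggtatacctg
Wnt5b (3′ UTR, chr6:119383163-119383190, - strand): attttctggccaGGACttttgggacatg
Wnt7b (3′ UTR, chr15:85367511-85367538, - strand): ctgcctgtgactGGACacagaaaggcca
Fzd1 (3′ UTR, chr5:4754299-4754326, - strand): gaaagcctggttGGACttccgaagacag
Fzd5 (coding, chr1:64782017-64782044, - strand): actgagctcggtGGACggggacccagtg
Fzd6 (coding, chr15:38866598-38866625, + strand): tccgtcaaagagGGACgagcagaccgag
Lgr4 (coding, chr2:109852567-109852594, + strand): ttcctttgtctcGGACagctctgaccag
Rspo2 (3′ UTR, chr15:42853892-42853919, - strand): gtgcccaagcatGGACtcagcgttattt
Ror2 (coding, chr13:53206189-53206216, - strand): gccccgctttaaGGACatccacagccgg
Nkd2 (coding, chr13:73958513-73958540, - strand): tgaagtagtacgGGACctgcctcccatg
Lef1 (5′ UTR, chr3:130813319-130813346, + strand): gccctggcattcGGACattcccggagcc
Sfrp4 (coding, chr13:19715280-19715307, + strand): tgcagcccaggaGGACagtgccatgctc

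Wnt genes changed in both directions, and among the ligands, Frizzled receptors, antagonists and R-spondin genes some members rose while others fell. At an adjusted p under 0.05, 12 members were higher and 11 lower in cKO, that is 23 of the 46 tested, against 30.5% of all genes tested (13.7% higher and 16.8% lower). A change of at least 2-fold was called for 14 members, 6 higher and 8 lower, against 9.2% of all genes (2.79% higher and 6.41% lower). The median size of the change, whatever its sign, was 0.73 on the log2 scale for the members and 0.25 for all genes, whereas the signed median of the members was 0.06. Of the tested members, 6 passed the filter through only some of their libraries. Wnt2 and Rnf43 passed through cKO, Wnt10a and Lgr6 through WT, and Wnt10b and Tcf7 through libraries of both groups. Among the 40 that passed in every library, 11 were higher and 9 lower. With a WT library left out, the spread is estimated only from the cKO libraries, which were closely alike. A pass in such a fit is therefore not given for single genes below. Leaving out WT replicate 1 gave 22 members higher and 15 lower, with 55.8% of all genes called, whereas treating the closely alike cKO libraries as 1 sample gave 9 and 9, with 12.5% of all genes called.

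**Figure D1:**
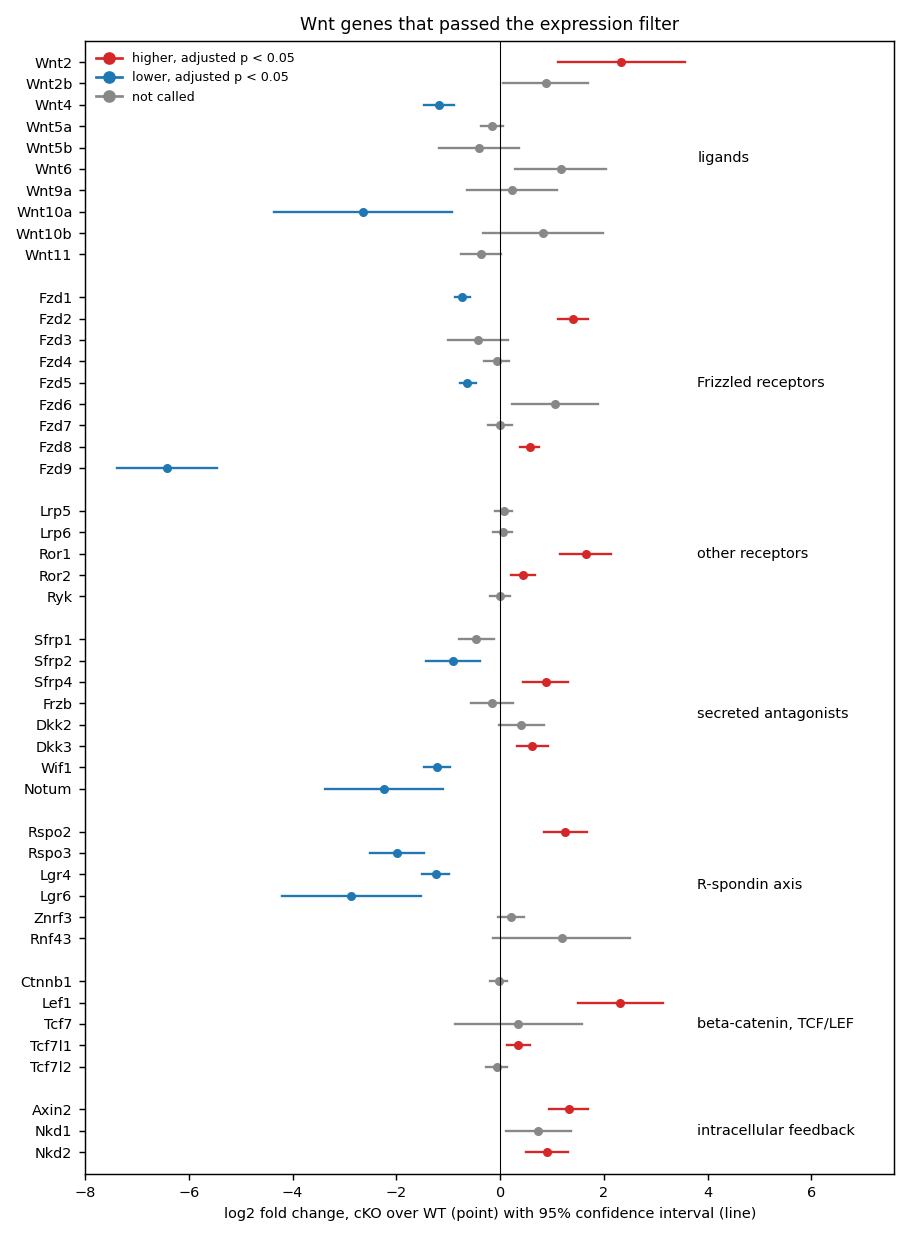
Log2 fold change of cKO over WT (points, horizontal axis) with its 95% confidence interval (lines) for the 46 tested Wnt genes, grouped by role from ligands at the top to intracellular feedback genes at the bottom. Red marks genes called higher, blue genes called lower and grey genes not called, and every role from ligands to the R-spondin axis except the co-receptors and alternative receptors holds points on both sides of 0 that were called.

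The ligands summed to 31.9 and 33.0 TPM in WT and to 27.6 and 28.5 TPM in cKO, with both cKO sums below both WT sums, and 3 ligands made up most of each sum. Wnt11, a ligand of the branch without β-catenin, had the highest mean TPM over the 4 libraries. In cKO replicate 1, Wnt5a stood above it at 9.46 TPM. The rank of Wnt11 holds only for the deposited TPM. In CPM Wnt11 stood below Wnt4 and Wnt5a in every library, although the gene lengths listed for Wnt11 and Wnt4 were close, at 4137 and 4194 bases. Wnt11 was at 11.3 and 13.1 TPM in WT against 9.22 and 11.8 TPM in cKO. These ranges overlapped, and in CPM Wnt11 was at 6.06 and 7.15 against 4.79 and 5.43 (log2 fold change -0.36, SE 0.159, adjusted p = 0.135). Wnt5a, which signals mainly through Ror receptors, was at 30.7 and 31.3 CPM in WT and 29.7 and 26.1 CPM in cKO (log2 fold change -0.15, SE 0.0903, adjusted p = 0.243). When WT replicate 1 was left out, the estimates were -0.47 for Wnt11 and -0.17 for Wnt5a.

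Wnt4 (mm10 chr4:137277489-137299726), a ligand with known roles in kidney, gonad and skeletal tissue, was the one abundant ligand that fell. It was at 20.4 and 23.9 CPM in WT and at 9.24 and 10.3 CPM in cKO, with both cKO libraries below both WT libraries (log2 fold change -1.17, SE 0.121, adjusted p = 0.00103). Its share of the ligands' summed TPM was 21.1% and 23.4% in WT and 11.7% and 12.7% in cKO.

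Both other calls among the ligands rested on few counts. Wnt2, a ligand of the β-catenin branch, rose from 4 counts in each WT library to 19 and 18 counts in cKO (log2 fold change 2.33, 95% confidence interval 1.11 to 3.56, adjusted p = 0.0169). The call was lost without either cKO library, at 2.10 without replicate 1 and 2.57 without replicate 2, with the cKO libraries summed, and in DESeq2. Wnt10a, which acts in skin, teeth and bone, had 13 and 16 counts in WT and 3 and 1 in cKO, a ratio of pooled counts of 0.156 with a counting interval of 0.0398 to 0.443. The call for Wnt10a in the main fit (adjusted p = 0.0339) was lost without WT replicate 2 (-2.36), cKO replicate 1 (-3.75) or cKO replicate 2 (-1.89). It was also lost with the cKO libraries summed and in DESeq2.

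The remaining ligands were not called. Wnt6, at 0.592 and 0.531 CPM in WT and 1.53 and 1.04 CPM in cKO, had an adjusted p of 0.0558. Its estimate was 1.25 without WT replicate 1 and 1.08 without WT replicate 2. Wnt2b, Wnt9a and Wnt10b had positive estimates of 0.88, 0.22 and 0.82, with adjusted p of 0.0994, 0.682 and 0.242. The estimate for Wnt9a turned to -0.21 without WT replicate 2 and was 0.90 without WT replicate 1. Its WT libraries lay at 3.19 and 1.49 CPM, on either side of 2.72 and 2.79 CPM in cKO. Wnt5b stood at -0.41 (adjusted p = 0.387), in a locus it shares with the far more abundant Fbxl14 on the other strand, and the library kit does not keep the strand of the RNA. Wnt7b and Wnt16 had at most 3 counts in any library and were not tested.

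The Frizzled receptors, which carry the ligand-binding domain, changed in their makeup. Fzd9 (mm10 chr5:135248938-135251230), a receptor known to be needed for normal bone formation in mice, was nearly absent from the cKO libraries. It had 57.2 and 103 CPM in WT and 1.16 and 0.753 CPM in cKO, that is 1933 and 2922 counts against 28 and 24, with no overlap and an 85.7-fold lower level in cKO (log2 fold change -6.42, 95% confidence interval -7.39 to -5.45, adjusted p = 0.00014). On the scale of log2(TPM + 1), which shrinks changes of low values, the change was -4.92. The WT libraries differed from each other by more than 1.5-fold in Fzd9, and so did the cKO libraries. Fzd9 and the chondrocyte markers moved in the same direction in these libraries, Col2a1 from 2400 and 2200 to 47.9 and 51.5 CPM and Sox9 from 47.7 and 61.8 to 14.4 and 13.5 CPM, and what part the makeup of the cultures had in the Fzd9 change was not tested.

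Fzd2 (mm10 chr11:102604396-102608058) moved the other way. It was at 22.2 and 28.3 CPM in WT and 64.6 and 68.8 CPM in cKO, with every cKO value above every WT value (log2 fold change 1.41, SE 0.12, adjusted p = 0.000493). Fzd9 made up 22.2% and 34.4% of the summed Frizzled TPM in WT and 0.624% and 0.399% in cKO, whereas Fzd2 went from 5.12% and 5.65% to 20.9% and 21.9%. The summed level was 166 and 188 TPM in WT and 125 and 128 TPM in cKO, and without Fzd9 it was 129 and 123 against 124 and 127 TPM, ranges that overlapped.

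Fzd1, the receptor with the highest mean TPM of the family, fell from 174 and 167 CPM to 101 and 104 CPM (log2 fold change -0.73, SE 0.0598, adjusted p = 0.000411), and its groups did not overlap. Fzd7, the next most abundant over the 4 libraries together, was at 91.3 and 75.7 CPM in WT and 83.5 and 83.9 CPM in cKO, where the WT libraries enclosed the cKO ones (0.00 on the log2 scale, 95% confidence interval -0.23 to 0.23, adjusted p = 0.988). The Fzd7 estimate was -0.13 without WT replicate 2 and 0.15 without WT replicate 1, so its sign turned on which WT library was left out. Fzd5 fell (-0.63, adjusted p = 0.000994) and Fzd8 rose (0.57, adjusted p = 0.00258), each with groups that did not overlap. Fzd3, Fzd4 and Fzd6 were not called, at -0.42, -0.07 and 1.06. Without WT replicate 1 the estimate was 1.61 for Fzd6 and -0.18 for Fzd4, and without WT replicate 2 it was 0.69 for Fzd6. Fzd10 reached at most 14 counts and was not tested.

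**Figure D2:**
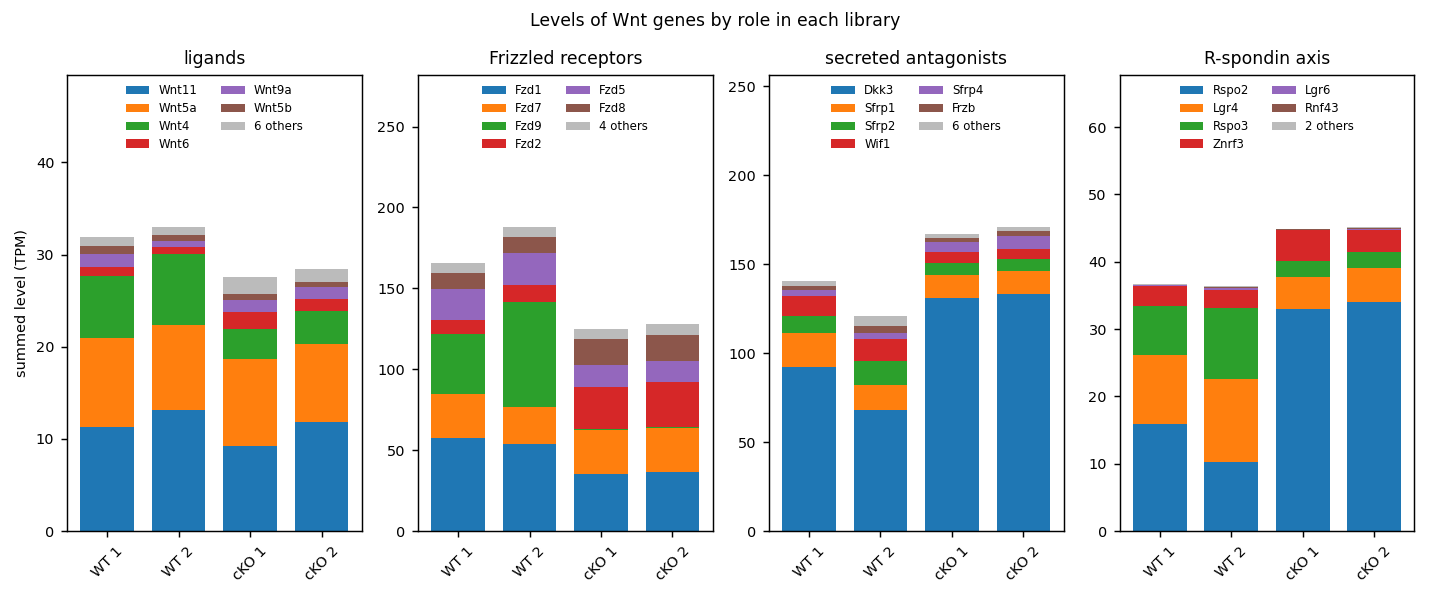
Summed level in TPM (vertical axis, from 0, with its own scale in each panel) of the ligands, Frizzled receptors, secreted antagonists and R-spondin axis genes in each of the 4 libraries, stacked by gene with the 6 highest by mean TPM in colour and the others in grey. The Fzd9 block of 36.7 and 64.8 TPM in WT is 0.78 and 0.51 TPM in cKO, and the Rspo2 block grows from 15.8 and 10.3 TPM to 32.94 and 33.95 TPM.

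Among the other receptors, 2 of 5 rose, both of the Ror family, while Lrp5, Lrp6 and Ryk did not pass the test. Ror1 (mm10 chr4:100095791-100444765), a receptor tyrosine kinase-like protein that binds Wnt5a, was at 7.96 and 5.02 CPM in WT and 19.5 and 21.5 CPM in cKO, without overlap (log2 fold change 1.65, SE 0.203, adjusted p = 0.00209). Its relative Ror2 was at 12.7 and 13.9 CPM against 17.6 and 18.3 CPM (0.44, SE 0.098, adjusted p = 0.019), a call lost without cKO replicate 1 (0.47) or cKO replicate 2 (0.41), with the cKO libraries summed, and in limma on TPM without a filter. Lrp6, which had the highest mean TPM of the group over the 4 libraries, was at 188 and 166 CPM in WT and 185 and 182 CPM in cKO, values that overlapped (0.05, SE 0.0743, adjusted p = 0.654). Ryk, a pseudokinase receptor for Wnt5a, was at 59.2 and 67.9 CPM against 63.8 and 62.7 CPM (adjusted p = 0.973), and Lrp5, in which loss of function is known to cause low bone mass, had an estimate of 0.07 (adjusted p = 0.492). Without WT replicate 1 the estimates were 0.14 for Lrp5 and 0.15 for Lrp6, and without WT replicate 2 the estimate for Lrp6 was -0.04.

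The secreted antagonists were dominated by Dkk3, a member of the Dickkopf family that, unlike its relatives, is not known to bind Lrp6. It was at 219 and 166 CPM in WT and 295 and 298 CPM in cKO, above both WT libraries (log2 fold change 0.62, SE 0.126, adjusted p = 0.0133), and made up 65.5% and 56.5% of the summed antagonist TPM in WT and 78.4% and 77.8% in cKO. The call was lost in limma on log2(TPM + 1) without a filter (0.73). With Dkk3 the antagonists summed to 141 and 121 TPM in WT and 167 and 171 TPM in cKO, and without it to 48.6 and 52.6 against 36.0 and 37.9 TPM, so the direction of the sum turned on this gene.

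Wif1 (mm10 chr10:121033960-121100650), which binds Wnt ligands directly and is made by cartilage and osteoblasts, fell from 17.7 and 19.7 CPM to 8.09 and 8.0 CPM, with no overlap (log2 fold change -1.22, SE 0.107, adjusted p = 0.000549). Notum (mm10 chr11:120653788-120661175), an enzyme that strips the lipid from Wnt ligands, was at 1.86 and 4.28 CPM in WT and 0.66 and 0.628 CPM in cKO (-2.24, SE 0.471, adjusted p = 0.0152). The Notum libraries did not overlap between the genotypes, but the estimate was -1.53 without WT replicate 2, the call was lost in each fit on TPM, and 48 counts in its antisense neighbour Notumos cannot be told apart by strand.

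The Sfrp family, soluble relatives of the Frizzled binding domain, was divided. Sfrp1, its most abundant member, was at 61.5 and 45.4 CPM in WT and 39.2 and 38.9 CPM in cKO, without overlap but at an adjusted p of 0.0511 (-0.46, SE 0.14). The estimate was -0.21 without WT replicate 1 and -0.66 without WT replicate 2, each of which removes the gap between the WT libraries. Sfrp1 passed in DESeq2 and with the replicate number as a block. Sfrp2 fell (-0.90, adjusted p = 0.0236) and Sfrp4 rose (0.88, adjusted p = 0.0129). Sfrp2 lost its call without cKO replicate 1 (-0.96) or cKO replicate 2 (-0.83), with the cKO libraries summed, and in each limma fit on TPM. Sfrp4 lost its call without cKO replicate 2 (0.68) and in limma on log2(TPM + 1) without a filter. Frzb (-0.16) and Dkk2 (0.41) were not called, and the estimate for Dkk2 was 0.53 without WT replicate 1. Dkk1, the best known inhibitor of Lrp6, had 1 count in all 4 libraries together. Sost, the osteocyte inhibitor sclerostin, and its relative Sostdc1 had 0 in each. A count of 0 allows levels of up to 0.0881 to 0.125 CPM (3 counts of a library, for counting error alone). The positions given for Sost (mm10 chr11:101966760-101967015) and Sostdc1 (mm10 chr12:36317032-36318452) span less than their mm9 gene models (chr11:101823772-101828329 and chr12:37040756-37045039). Whether this lowered their counts was not tested, so the floor may not hold for them. Sfrp5 had 4 or 5 counts in each library and was not tested.

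Within the R-spondin axis one ligand rose and another fell. Rspo2 (mm10 chr15:43020811-43170818) and Rspo3 (mm10 chr10:29453109-29535867) are secreted proteins that bind the receptors Lgr4, Lgr5 and Lgr6 and keep the ubiquitin ligases Znrf3 and Rnf43 from clearing Frizzled. Rspo2 rose from 37.3 and 24.8 CPM in WT to 73.3 and 75.3 CPM in cKO (log2 fold change 1.25, SE 0.174, adjusted p = 0.00327). Rspo3 fell from 11.9 and 17.7 CPM to 3.71 and 3.73 CPM (-1.98, SE 0.213, adjusted p = 0.0012). The genotypes overlapped in neither gene, though the Rspo2 call was lost in limma on log2(TPM + 1) without a filter (1.32), and the ratio of Rspo2 to Rspo3 in TPM was 2.17 and 0.977 in WT and 13.7 and 14.0 in cKO.

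Lgr4 (mm10 chr2:109917647-110014257), the one R-spondin receptor of the family at an appreciable level, was lower as well, at 37.5 and 43.9 CPM in WT and 16.6 and 17.7 CPM in cKO, with no overlap (log2 fold change -1.24, SE 0.104, adjusted p = 0.000444). Lgr6 had 32 and 56 counts in WT and 4 and 7 in cKO (-2.87, 95% confidence interval -4.20 to -1.53, adjusted p = 0.0112), an estimate that moved to -2.25 without WT replicate 2 and to -0.28, with the call lost, in limma on log2(TPM + 1) without a filter. Lgr5 had at most 8 counts and Rspo1 at most 5. The ligases Znrf3 (0.21, adjusted p = 0.187) and Rnf43 (1.19, adjusted p = 0.15) were not called, and the estimate for Znrf3 was 0.28 without WT replicate 1. Rspo2 alone made up 43.1% and 28.3% of the summed TPM of this group in WT and 73.3% and 75.1% in cKO, and Lgr4 went from 28.1% and 33.9% to 10.6% and 11.3%.

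**Figure D3:**
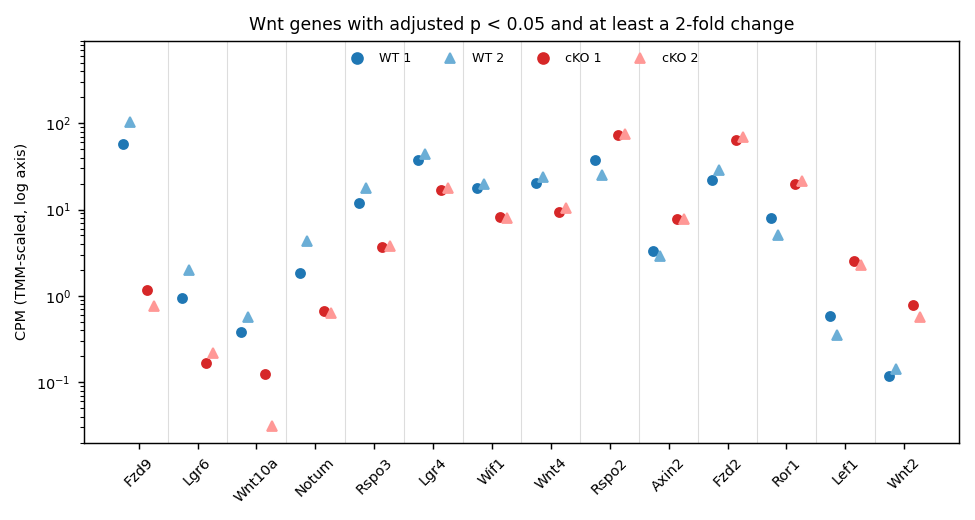
CPM in each library (points, log axis) for the 14 Wnt genes called with at least a 2-fold change, ordered from the largest fall (Fzd9) to the largest rise (Wnt2), with circles for replicate 1 and triangles for replicate 2, blue for WT and red for cKO. In each gene the WT and cKO points lie apart, which choosing called genes all but fixes. The spread between WT points is widest for Notum (1.86 and 4.28 CPM) and Lgr6 (0.947 and 1.98 CPM).

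Inside the cell, β-catenin mRNA did not pass the test, while 2 of the 3 feedback genes, Axin2 and Nkd2, rose. Ctnnb1, which encodes β-catenin, was at 676 and 611 CPM in WT and 638 and 630 CPM in cKO, with the WT libraries on either side of the cKO ones (log2 fold change -0.02, SE 0.0683, adjusted p = 0.843). The estimate for Ctnnb1 was 0.06 without WT replicate 1 and -0.10 without WT replicate 2. Tcf7l2, the TCF/LEF gene with the highest mean TPM, was at 22.2 and 22.5 CPM against 21.8 and 20.9 CPM (-0.07, adjusted p = 0.569). Tcf7l1, mainly a repressor, rose slightly (0.35, adjusted p = 0.0308), a call lost without cKO replicate 1 (0.35), without cKO replicate 2 (0.36), with the cKO libraries summed and in DESeq2. Tcf7, at 10 to 14 counts a library, was not called (0.35, adjusted p = 0.643).

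Lef1 (mm10 chr3:131110471-131224356), a TCF/LEF factor and itself a known target of the β-catenin branch, rose from 20 and 10 counts in WT to 62 and 72 in cKO, or from 0.592 and 0.354 to 2.56 and 2.26 CPM (log2 fold change 2.32, SE 0.336, adjusted p = 0.00388). It stayed a scarce transcript, and on log2(TPM + 1) the change was 1.01. Axin2 (mm10 chr11:108920349-108950783), a scaffold of the β-catenin destruction complex and the most widely used target of the pathway, rose from 3.34 and 2.87 to 7.80 and 7.84 CPM, with no overlap (1.33, SE 0.156, adjusted p = 0.00173). Its relative Axin1, at 58.8 and 69.3 CPM in WT and 71.2 and 70.3 CPM in cKO, was not called (0.14, adjusted p = 0.264). On log2(TPM + 0.1) the Axin2 change was 1.99. Nkd2, a Dishevelled-binding feedback inhibitor, rose from 9.26 and 6.62 to 14.8 and 15.0 CPM (0.90, SE 0.165, adjusted p = 0.00936, a call lost in limma on log2(TPM + 1) without a filter at 0.86), and its relative Nkd1 was at 4.50 and 2.69 against 6.56 and 5.52 CPM (0.73, adjusted p = 0.0781). The estimate for Nkd1 was 1.16 with WT replicate 1 left out and 0.41 with WT replicate 2 left out. Nkd1 passed with the replicate number as a block. The 3 feedback genes summed to 6.37 and 4.19 TPM in WT and 12.9 and 12.8 TPM in cKO.

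Other genes of the pathway, 94 from a separate list, moved in both directions. Of the 79 tested, 29 were higher and 13 lower in cKO, beside 13.7% higher and 16.8% lower among all genes tested, which is also the background for the smaller lists that follow. Among the known β-catenin targets 5 of 15 rose and 7 fell. Tnfrsf19, a receptor of the tumour necrosis factor family, rose most by log2 fold change (0.385 and 0.283 to 2.48 and 2.35 CPM, 2.82, adjusted p = 0.0015), although 1 of its WT libraries, at 8 counts, was under the minimum of the filter. Fosl1, an AP-1 factor of osteoblasts, fell from 27.2 and 28.8 to 4.54 and 5.27 CPM (-2.50, adjusted p = 4.09e-05), and Tnfrsf11b, which encodes the osteoclast inhibitor osteoprotegerin, fell from 55.1 and 43.2 to 14.7 and 15.2 CPM (-1.72, adjusted p = 0.000295). Axin2, Lef1 and Nkd2 on one side and Fosl1 and Tnfrsf11b on the other thus moved in opposite directions within genes known as targets of one branch.

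Of 8 other secreted or cell-surface regulators tested, 4 rose and 1 fell. Gpc4, a glypican that carries Wnt ligands on heparan sulphate, rose from 36.2 CPM in each WT library to 109 and 106 CPM (log2 fold change 1.57, SE 0.0612, adjusted p = 2.18e-05). Draxin, a secreted antagonist that binds Lrp6, fell from 26.2 and 35.4 to 4.50 and 4.08 CPM (-2.85, SE 0.178, adjusted p = 0.000139). In the secretion and destruction complex 8 of 22 rose and 1 fell, and Apc2, a homologue of Apc, rose from 2.75 and 2.94 to 8.75 and 8.44 CPM (1.60, adjusted p = 0.000651). Among nuclear cofactors 7 of 15 rose and 1 fell, and in the planar polarity and calcium branches 5 of 19 rose and 3 fell. With either cKO library left out, or both summed to 1 sample, fewer of these pathway genes were called than the 42 of the main fit. The share of all genes tested that was called fell as well in these settings, and the cause was not tested.

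The m6A peaks of WT MSCs lay on 26 of the 55 members (47.3%), with 40 peaks in all. Among tested members 22 of 46 had a peak (47.8%), against 40.0% of all tested genes that the mm9 annotation holds. Within the middle range of the members' mean CPM the shares were 45.5% for members and 39.0% for all genes. The peaks lay on 6 of 10 Frizzled genes, 3 of 5 other receptors, 4 of 8 R-spondin axis genes, 5 of 12 ligands, 5 of 12 antagonists, 2 of 5 genes of the β-catenin and TCF/LEF group and 1 of 3 feedback genes. Fzd1 had 4 peaks, Fzd7 and Lrp6 3 each, 7 members 2 each (Fzd8, Lrp5, Ror2, Rnf43, Znrf3, Wnt7b and Ctnnb1), and 16 members 1.

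The summit was coding in 29 of the 40 peaks (72.5%, against 61.1% of all peaks within genes), in the 3′ UTR in 7 (17.5%, against 25.6%) and in the 5′ UTR in 4 (10.0%, against 5.5%), and in no intron (0 of 40, against 5.7%). Of the 40, 11 lay within 200 nt of the stop codon (27.5%, against 30.4%). GGAC was found in a window of 101 nt around the summit in 26 of 40 (65.0%, against 60.4%), and somewhere in the peak in 38 of 40. The exceptions were the Dkk3 peak and the 5′ UTR peak of Ctnnb1. The median fold enrichment given by the peak caller was 4.24 for the members, from 1.79 to 9.91, and 4.03 for all peaks.

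**Figure D4:**
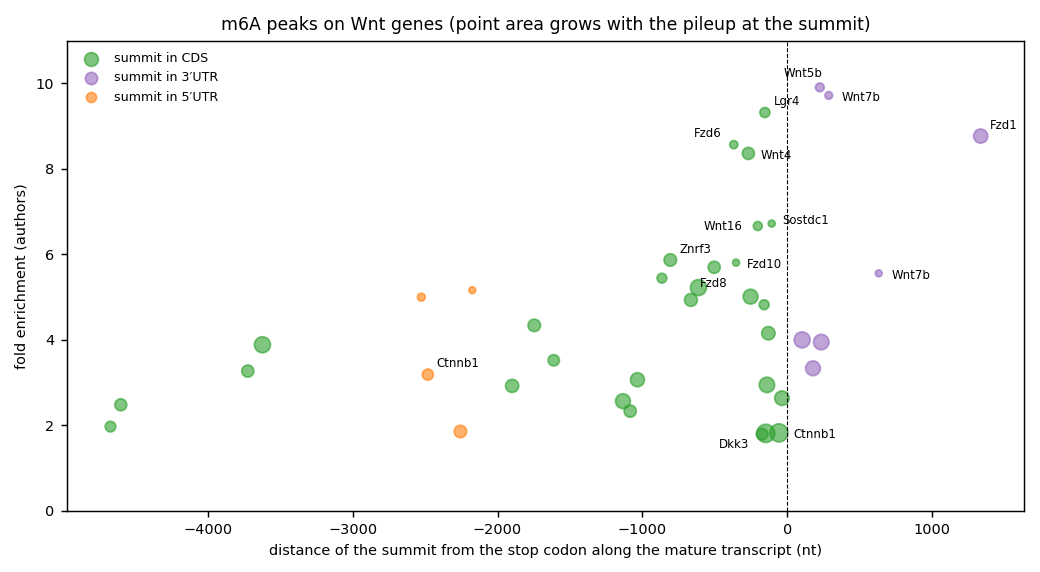
Fold enrichment of each of the 40 m6A peaks on Wnt genes (vertical axis, as the authors' peak caller gave it) against the distance of its summit from the stop codon along the mature transcript in nt (horizontal axis, negative upstream), coloured by coding sequence or UTR. The peaks above 8-fold belong to Wnt5b, Wnt7b, Lgr4, Fzd1, Fzd6 and Wnt4, and only that of Fzd1 among them lies more than 1000 nt from the stop codon.

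The most enriched member peaks were those of Wnt5b (9.91-fold, 3′ UTR), Wnt7b (9.72-fold, 3′ UTR), Lgr4 (9.32-fold, coding), Fzd1 (8.77-fold, 3′ UTR), Fzd6 (8.57-fold, coding) and Wnt4 (8.36-fold, coding). Lgr4 and Wnt4, whose mRNAs fell in cKO, had their summits 154 and 268 nt before the stop codon. Wnt5a, whose mRNA was not called, carried a 5.01-fold peak 253 nt before its stop codon, with this stretch around the nearest GGAC:
Wnt5a (coding, chr14:29335862-29335889, + strand): cccgaccacgcaGGACctggtctacatc
Aligned on GGAC, 17 of the 28 bases of the Wnt5a and Wnt4 stretches were identical, a count that includes GGAC itself, which both hold by construction. This pair was chosen after the sequences had been seen. The Rspo2 peak (3.94-fold) lay 235 nt into the 3′ UTR, the Nkd2 peak (2.63-fold) 36 nt before the stop codon, and the Lef1 peak (5.16-fold) in the 5′ UTR with a pileup of only 7 fragments.

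Members with and without a peak were found in each class of change. Of the 26 members with a peak 7 were higher, 4 lower, 11 not called and 4 not tested, and of the 29 without a peak 5 were higher, 7 lower, 12 not called and 5 not tested. Of the 14 members called with at least a 2-fold change, 4 had a peak (Wnt4, Lgr4, Rspo2 and Lef1) and 10 had none, among them Fzd9, Fzd2, Ror1, Wif1, Rspo3 and Axin2. The median log2 fold change was 0.14 for the 22 tested members with a peak and -0.04 for the 24 without, and the median size of the change was 0.60 and 0.89. These are descriptions of a single peak list with no replicates. Wnt7b, Wnt16, Fzd10 and Sostdc1 had peaks although too few counts for a test in the RNA-seq libraries, and Sostdc1 had 0 counts in each of them beside a 6.72-fold peak with a pileup of 8 fragments.

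The start sites of the members were searched for CTTTGNT, a pattern taken here for the core that TCF/LEF factors bind. Other forms of that core were not searched for. Both strands were read, in RefSeq windows on GRCm38.p6 that run from 250 bases before to 50 bases after a start. Of the 55 members 37 had a window, 47 windows in all, and 5 windows held the motif (10.6%), against 18.6% of all 32851 windows. The 5 members were Fzd7, Wnt5b, Wnt11, Dkk1 and Tcf7l2. Dkk1 had too few counts to be tested and the others were not called, beside 30.5% called among all genes tested. The windows of Axin2, Lef1, Nkd1 and Nkd2 held no match. The motif is shown in capitals, on the strand of the gene, for the ligand with the highest mean TPM:
Wnt11 (GRCm38.p6 chr7:98835051-98835077, + strand, motif on the opposite strand): acgtgggcggATCAAAGcgacggtccg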

How the data were processed

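The RNA-seq table gave estimated counts per gene that the authors deposited, 1 column per library, from reads mapped with HISAT2 2.0.4 (positions mm10). The column headed FPKM was read as TPM, since the authors' values sum to the same fixed total in each library. The authors' m6A peak list, in MACS2 layout on mm9, gave for each peak a pileup signal, a fold enrichment (a ratio over background) and −log10 p and q values, as deposited. Whether samples were pooled for calling is not given in the sources used here. The processing notes also name TopHat.

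Estimated counts were rounded and 47643 named genes kept (entries without a name held 0.11% to 0.125% of counts). Genes passing filterByExpr (minimum count 10) were tested with edgeR 4.0.16 (R 4.3.3), TMM scaling, the quasi-likelihood test without a block, two-sided, and Benjamini-Hochberg adjustment over 15327 genes. An exact permutation test of 2 against 2 cannot go below p = 0.333, so none was used. For the same reason, groups that do not overlap describe the values and add no support to a call. The study's own test was another (Ballgown). A self-test on simulated counts preceded the fit. Counts in 2 cKO libraries were close but not identical and stayed separate samples. Alternatives were a replicate block, no filter, median-of-ratios factors, DESeq2 1.42.0, limma 3.58.1 on log2(TPM + 0.1) and log2(TPM + 1) with TPM of at least 0.5, each replicate left out, and, added after seeing the data, the cKO libraries summed. Intervals and floors for counts cover counting error only.

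A peak was given to a member where its summit lay within the mm9 gene model, coding before 3′ UTR before 5′ UTR. Values in every library were given for members called with at least a 2-fold change and for the 2 of each role with the highest mean TPM. For the other pathway genes, the 3 largest called rises and falls were named where all libraries of a genotype held 10 counts or more. The members and lists were chosen with earlier results of these data known.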

Additional observations from a re-analysis of the deposited data

How the results depend on the processing

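The count of all genes called, 4677, was 2852 and 2831 in limma on log2(TPM + 0.1) and log2(TPM + 1), 1658 in the latter without a filter, 2012 with the cKO libraries summed (chosen after seeing the data), and 1867 to 8750 with 1 replicate left out. Members called higher, 12, were 5 in limma without a filter and 8 to 22 with 1 replicate left out, and members called lower, 11, were 7 in each of the 3 limma fits and 9 to 15. Other pathway genes called, 42, were 23 in limma without a filter, 18 with the cKO libraries summed, and 18 to 58. The cause was not tested, except that the limma fits with a filter had fewer genes to test (14473). Members with a peak, 26, were 26 by any exon overlap, 19 at a −log10 q of at least 10 and 22 at a fold enrichment of at least 3. The replicate numbers did not pair the samples (correlation of deviations 0.032), and with the number as a block 4881 genes, 14 higher and 12 lower members and 44 other pathway genes were called. Estimates near 0 that turned were Fzd4 (0.03 in each limma fit), Ryk (0.000467 with median-of-ratios factors, 0.000356 in DESeq2, 0.12 in each limma fit and 0.00037 with cKO summed), and Ctnnb1 (0.00693 and 0.00689 in limma). With 1 replicate left out, where the lone library is assumed to vary like the other group, the sign turned within the ranges of Wnt9a (-0.21 to 0.90), Fzd4 (-0.18 to 0.05), Fzd7 (-0.13 to 0.15), Lrp6 (-0.04 to 0.15), Ryk (-0.10 to 0.09), Ctnnb1 (-0.10 to 0.06), Tcf7 (-0.11 to 0.76) and Mettl3 (-0.08 to 0.02). No called member turned in any alternative. The fit on log2(TPM + 0.1) moved the median of all genes by 0.102 on the log2 scale, and that on log2(TPM + 1) by 0.092. In limma without a filter 11 calls among the named genes were lost (Wnt2, Wnt10a, Ror2, Sfrp2, Sfrp4, Dkk3, Notum, Rspo2, Lgr6, Tcf7l1 and Nkd2). With 2 libraries a group the spread is estimated from few values.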
